A study of Mus musculus with 40 samples.

Results

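The genes described here are those whose response to maternal folic acid in the male fetal mouse liver took a different sign or size when the dam was fed a western diet rather than a control diet. The measure was the difference of 2 folic acid effects on log2(value + 1), (WDF minus WD) minus (CDF minus CD), over 20 of the series' 40 bulk RNA libraries. All fetuses were C57BL/6, labelled as liver at E18.5. WDF males were sons of dams on a diet with 45% of its energy as fat and 10 mg folic acid per kg, and WD males of dams on the same fat with 2 mg/kg. CDF males came from dams on 10% fat with 10 mg/kg, and CD males from dams on 10% fat with 2 mg/kg. Each of these groups had 5 libraries of 1 mouse each, and all dams had eaten their diet for 13 weeks before breeding and through pregnancy. The western diet is the study's mouse model of gestational diabetes, and both of its male groups carried it, so the 2 control diet groups are the only ones without it. Neither dam nor litter is named in the labels, so p-values measure the spread between these fetuses, some of which may be littermates.

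Folate carries one-carbon units for the making of purines and thymidylate and for the remethylation of homocysteine to methionine, the precursor of the cell's methyl donor. The fetal liver near term is both a metabolic organ, with hepatocytes that make plasma proteins and handle lipid, and the main site of blood formation, with dividing red cell precursors and maturing neutrophils.

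Of the 20 libraries, 3 stood apart in lung, albumin or globin reads, and many of the results below are also given without them. WDF replicate 2 and CD replicate 5 held 5978 and 4012 normalized reads of Sftpc, the lung surfactant protein C gene, while WDF replicate 4 held 132.7, CD replicate 2 held 133.1 and the other 16 libraries at most 14.9. WDF replicate 4 and CD replicate 2 stay in the values given without the 3 libraries. CD replicate 4 had the lowest albumin value, 641907 against 910362 to 1469910 in the others, the highest alpha globin value, 1023120 Hba-a1 reads against at most 571161, and the largest total, 20808535 normalized reads against 15001967 to 18511730 in the others. Albumin, the defining hepatocyte transcript, was thus abundant in every library, as the liver label says. On the main axis of variation between libraries (first principal component, 30.8% of variance), CD replicate 4 lay farthest out, at 95.0. WD replicates 5 and 4 came next, at -52.2 and -44.1, and were not left out. All 3 left-out libraries belong to WDF or CD, the groups that enter the measure with a plus sign. The highest correlation of log values between any pair of libraries was 0.978, and no library repeated another.

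No gene passed an adjusted p of 0.05 for the difference of folic acid effects among 14783 genes tested (limma, Benjamini-Hochberg adjustment), and the smallest adjusted p was 0.179. Accordingly the values of single genes below are those of genes that did not pass. At an unadjusted p under 0.05 there were 2127 genes, 14.4% of those tested, with 1062 above 0 (7.18%) and 1065 below 0 (7.2%). Weighting each library by its own scatter, an alternative setting of limma, passed 469 genes at the adjusted threshold, 3.17% of all, of which 237 were above 0 (1.6%) and 232 below 0 (1.57%). In that fit the weights ran between 0.156 for CD replicate 4 and 3.59 for WD replicate 3. The other WD libraries had weights of 0.416 to 0.671, so the weighted WD means rest mainly on replicate 3. CD replicate 2 had a weight of 3.08, against 0.156 to 1.48 in the other CD libraries. Counts from the weighted fit, here and below, carry this limit. With the mean red cell marker level as a covariate 3 genes passed, Csta2 among them at an adjusted p of 0.0261.

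Genes with a large difference of effects tend by construction to have effects of opposite sign. Of the 2127 genes, 2102 had folic acid effects of opposite sign under the 2 maternal diets, 22 had effects of 1 sign that were larger under the western diet, and 3 had effects of 1 sign that were larger under the control diet. Among the 1062 genes above 0, 1041 lay higher in WDF than in WD males and lower in CDF than in CD males. Among the 1065 below 0, 1061 showed the reverse. WDF was the group farthest from the mean of the other 3 for 40.7% of the 2127 genes, WD for 28.4%, CDF for 13.5% and CD for 17.3%. Over all tested genes those shares were 33.3%, 22.4%, 20.5% and 23.8%. These counts and shares include the 3 libraries that stood apart.

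How far the opposite signs reached across the transcriptome depended on the 3 libraries. Over all 14783 genes the western and control diet effects, which share no library, correlated at r = -0.396, with 70.3% of genes opposite in sign. Without WDF replicate 2 and CD replicate 5 the correlation was -0.247, with 63.9% opposite and 1278 genes (8.71%) at an unadjusted p under 0.05, 641 above 0 (4.37%) and 637 below 0 (4.34%). Leaving out CD replicate 4 alone gave -0.148, with 57.7% opposite and 1504 genes (10.2%), 758 above 0 (5.15%) and 746 below 0 (5.07%). Without all 3, chosen after their values were seen, the correlation was 0.019, the share of opposite signs 50.5%, and the genes at an unadjusted p under 0.05 numbered 749 (5.13%), 393 above 0 (2.69%) and 356 below 0 (2.44%). The genes of each fit differ in number because the filter on low values was applied again, and genes within a library are not independent.

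**Figure D1:**
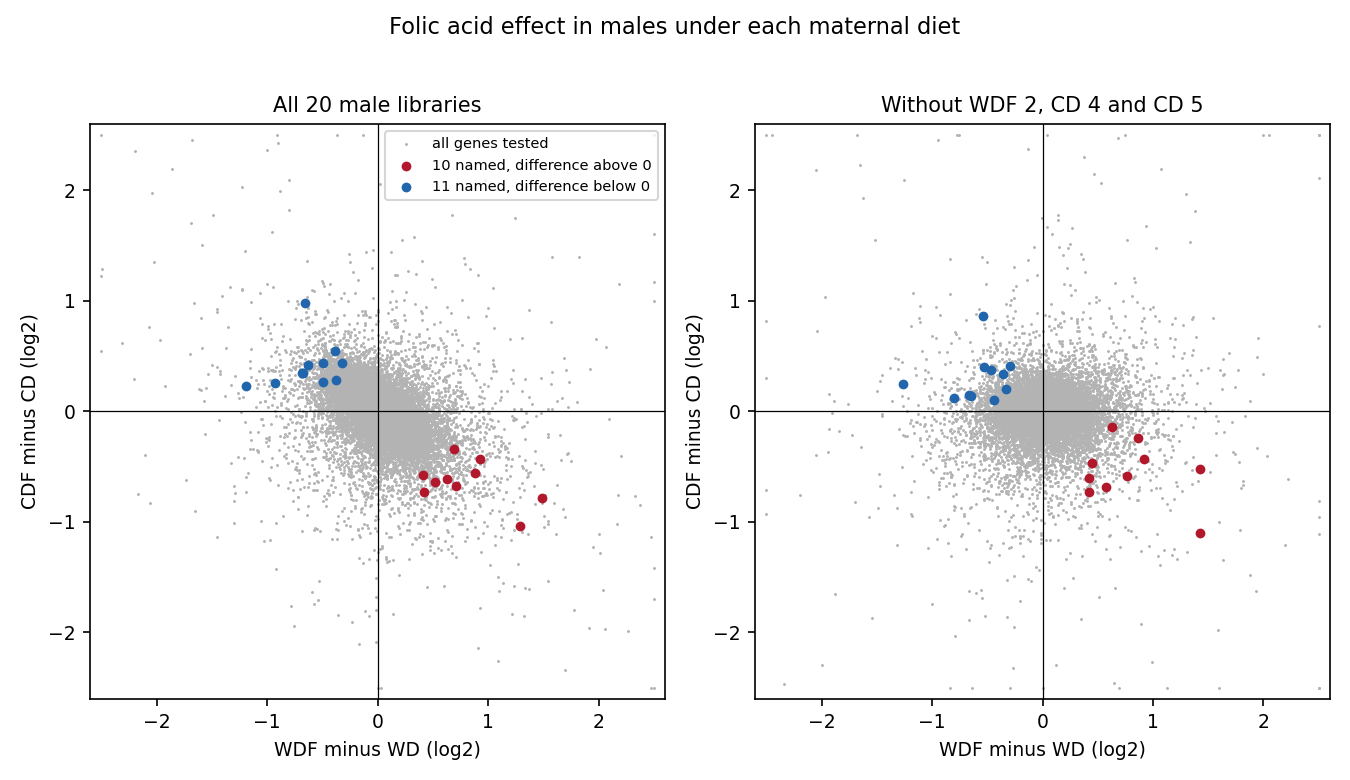
Folic acid effect in males of western diet dams (WDF minus WD, log2, horizontal) against that in males of control diet dams (CDF minus CD, log2, vertical), 1 point per gene, with all 20 libraries at left and without WDF replicate 2, CD replicate 4 and CD replicate 5 at right; effects past 2.5 are drawn at the edge. The tilt of the cloud seen at left (r = -0.396) is gone at right (r = 0.019), while the 10 red and 11 blue named genes stay in their quadrants.

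The 24 genes of smallest unadjusted p, 12 in each direction, all kept their direction without the 3 libraries, with a size 0.72 to 1.16 times that in the full set and an unadjusted p between 0.000165 and 0.00424, and all 24 passed the adjusted threshold when libraries were weighted. Without the 3 libraries the smallest adjusted p of any gene was 0.807. The genes were chosen in libraries that these fits share, which favours a kept direction and, in the weighted fit, a passed threshold. Groups that do not overlap are likewise favoured by the choice on this contrast. In 10 of the 24 the WDF and WD libraries did not overlap, a state reached by 1.34% of all genes with WDF above and 1.2% with WDF below. In 8 of the 24 the CDF and CD libraries did not overlap, against 0.271% of all genes with CDF above and 0.433% with CDF below. The remaining 3 of the 24 are predicted or unnamed genes and are not described further.

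Of the 10 described genes above 0, Retnlg, Csta2, Stfa2, Clec4d and Chil1 are known from myeloid cells. Retnlg, a resistin-like gene of myeloid cells (chr16:48872621-48874496, plus strand, mm10), had 599, 898, 1159.7, 1231 and 1147 normalized reads in WDF males, against 628, 452, 516, 473 and 588 in WD males. In CDF males it had 480.3, 481, 572, 350.5 and 543, against 707, 744, 507, 1086 and 608 in CD males. Of the 5 WDF libraries 4 lay above every WD library, and 3 of the CDF libraries lay below every CD library. The folic acid effect on Retnlg was 0.89 ± 0.204 log2 (SE) under the western diet and -0.56 ± 0.204 under the control diet, a difference of 1.45 ± 0.289 (limma, adjusted p = 0.179). The difference was 1.34 without the 3 libraries.

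Csta2 and Stfa2 encode stefins, inhibitors of cysteine proteases that are abundant in mouse granulocytes, and lie in a cluster of near-identical copies on chromosome 16, so the division of reads between them is uncertain. Csta2 (chr16:36221468-36257444, plus strand) had 672, 714, 841, 985 and 974 reads in WDF males, against 715, 452, 616, 382 and 431 in WD males. Its values were 392, 484, 531, 309.9 and 501 in CDF males, against 591, 723, 652, 857 and 689 in CD males. Every CDF library lay below every CD library, while 3 of the WDF libraries lay above every WD library. The difference of effects, 1.39 ± 0.255 log2 (SE; limma, adjusted p = 0.179), had the smallest unadjusted p of all genes, 2.27e-05. Stfa2 averaged 1526 ± 162 in WDF and 1175 ± 306 in WD males, and 1034 ± 128 in CDF and 1538 ± 159 in CD males (SD, n = 5 each), a difference of 0.99 ± 0.214 log2. Its CDF libraries, too, all lay below its CD libraries.

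Clec4d, a C-type lectin receptor of neutrophils and macrophages (chr6:123262111-123275265, plus strand), ranged from 33.8 to 122 in WDF and 17.3 to 36.1 in WD males, and from 10.6 to 38.6 in CDF and 28.3 to 63.5 in CD males. Its groups overlapped under both diets, and its difference of effects was 2.33 ± 0.509 log2, the largest among the 10 described genes above 0, and 2.52 without the 3 libraries. Chil1, a secreted chitinase-like protein made by myeloid and epithelial cells (chr1:134182176-134190181, plus strand), ranged from 289 to 542 in WDF and 238 to 338 in WD males. In CDF males it ranged from 214 to 307, wholly below the CD range of 339 to 518. The Chil1 difference was 1.16 ± 0.238 log2, and 0.92 without the 3 libraries.

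A list of 15 neutrophil marker genes, none of which is among the genes just named, was described as a group. It is 1 of the 8 lists taken up because their median difference lay farthest from that of all genes. That choice favours the counts and median given here. The gluconeogenesis, immediate early, B cell precursor, bile duct, lung, muscle and heart lists further below were taken up in the same way. All 15 were tested, 14 had a difference above 0, 7 were at an unadjusted p under 0.05 in that direction (7.18% of all genes), and the median difference was 0.50 log2 against 0.01 over all genes. None was below 0 at that p, and none passed the adjusted threshold. The median folic acid effect of the list was 0.11 under the western diet and -0.43 under the control diet, with 14 of 15 members lower in CDF than in CD males. Without the 3 libraries the median was 0.51, and 6 of 15 were at an unadjusted p under 0.05 (2.69% of all genes). Library weighting passed 4 of the 15 at the adjusted threshold, against 1.6% of all genes. In bulk liver RNA, fewer cells of a type and less RNA per cell cannot be told apart.

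Mmp9, the gelatinase stored in neutrophil granules (chr2:164940780-164955850, plus strand), had 462, 542, 704, 908 and 624 reads in WDF males, against 507, 357, 607, 408 and 501 in WD males. It had 415, 351, 561, 423 and 414 in CDF males, against 668, 694, 570.4, 942 and 580.1 in CD males. The groups overlapped under the western diet, and all CDF libraries lay below all CD libraries. The difference was 1.10 ± 0.262 log2 (SE; limma, adjusted p = 0.182), and 1.07 without the 3 libraries. Mmp8, the neutrophil collagenase, averaged 796 ± 179 in WDF and 617 ± 123 in WD males, and 541 ± 68.5 in CDF and 738 ± 148 in CD males (SD, n = 5 each). S100a9, a subunit of calprotectin, ranged from 14984 to 22263 in WDF and 9182 to 23019.7 in WD males, and from 10109 to 17592 in CDF and 15738 to 36511 in CD males. Ltf, the iron-binding lactoferrin, ranged from 5079 to 8433 in WDF and 3661 to 7075 in WD males, and from 3637 to 6939 in CDF and 5826 to 12187 in CD males. For S100a9 and Ltf the highest CD value was that of CD replicate 4, and without the 3 libraries their differences were 0.79 and 0.70 log2.

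The upstream sequences of Ltf and S100a9 are shown because C/EBP factors are known drivers of gene transcription in maturing neutrophils. The windows are the 250 bases before the RefSeq transcript start (GRCm38.p6), 5′ to 3′ on the gene's strand, with matches to the C/EBP half-palindrome TTNNGCAA on either strand in capitals. Of the 13 neutrophil list genes found in the RefSeq table, 6 (46.2%) hold a match, as do 9.5% of the 10987 tested genes found there. The windows are Ltf at chr9:111019042-111019291, plus strand, and S100a9 at chr3:90695722-90695971, minus strand.
Ltf: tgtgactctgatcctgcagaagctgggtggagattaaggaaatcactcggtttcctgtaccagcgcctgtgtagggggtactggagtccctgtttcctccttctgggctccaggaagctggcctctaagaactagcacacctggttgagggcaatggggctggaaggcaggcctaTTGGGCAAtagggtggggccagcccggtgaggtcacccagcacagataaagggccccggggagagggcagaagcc
S100a9: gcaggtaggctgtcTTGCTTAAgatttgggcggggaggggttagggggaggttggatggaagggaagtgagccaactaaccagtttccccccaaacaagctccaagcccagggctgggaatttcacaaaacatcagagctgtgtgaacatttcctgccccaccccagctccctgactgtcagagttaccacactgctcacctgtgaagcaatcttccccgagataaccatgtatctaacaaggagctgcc
The match lies 75 bases before the start of Ltf and 236 bases before that of S100a9, counted to its first base, and is a description of letters, not of bound sites.

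**Figure D2:**
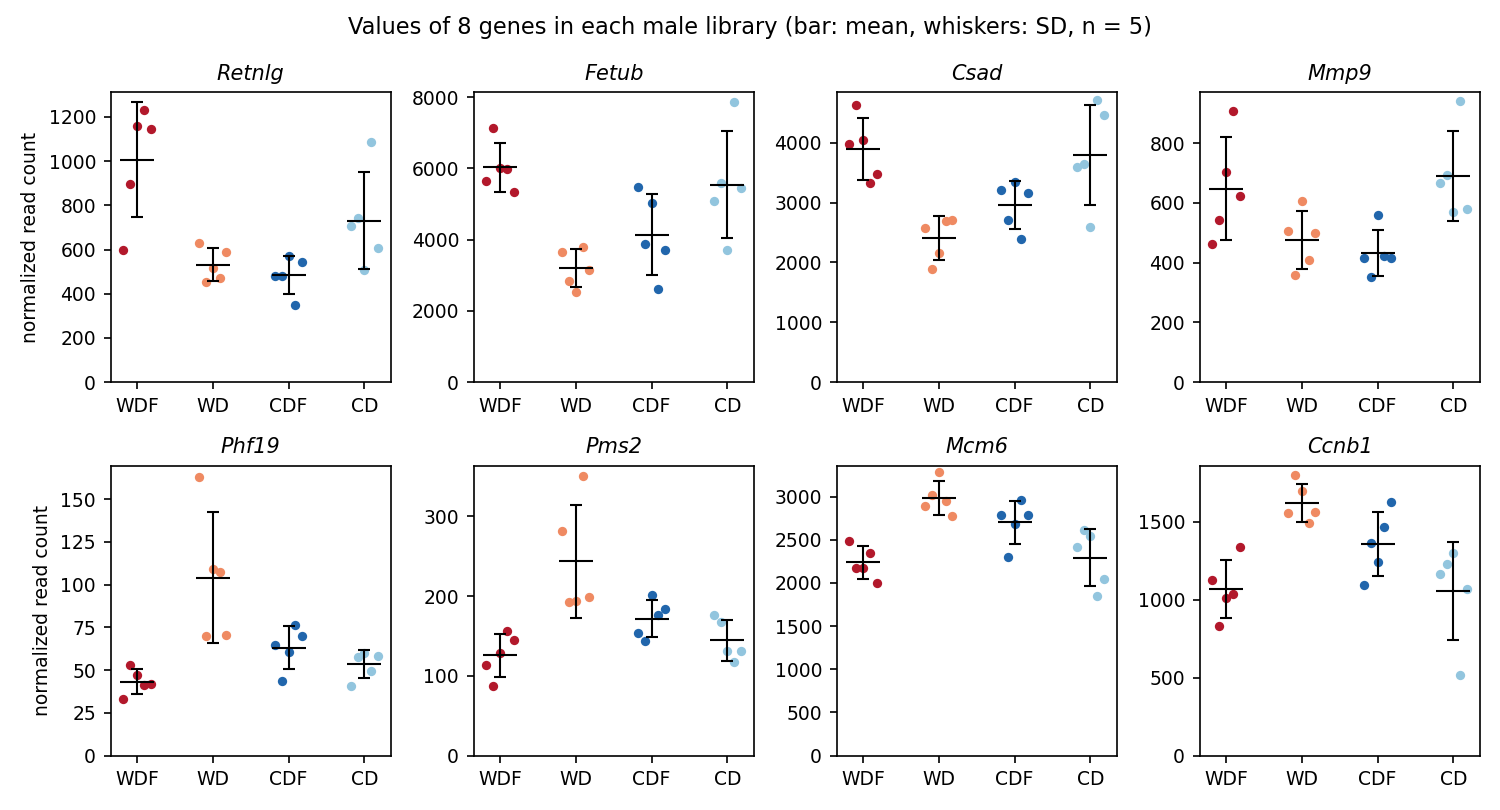
Normalized read counts of 8 genes in each male library (points), with the group mean (bar) and SD (whiskers, n = 5), groups from left to right WDF, WD, CDF and CD. In the upper row Retnlg, Fetub, Csad and Mmp9 lie high in WDF and CD; in the lower row Phf19, Pms2, Mcm6 and Ccnb1 lie high in WD.

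The other described genes above 0 have roles in secretion, metabolism and stress. Fetub, which encodes fetuin-B, a protease inhibitor secreted by hepatocytes (chr16:22918334-22939778, plus strand), had 5649, 7143, 6022, 5987 and 5346 reads in WDF males, against 3643, 2843, 2537, 3794 and 3158 in WD males. It had 5488, 3867, 5025, 2605 and 3695 in CDF males, against 5092, 5592, 3716, 7874 and 5452 in CD males. All 5 WDF libraries lay above all 5 WD libraries, while CDF and CD overlapped. Its folic acid effect was 0.93 ± 0.194 log2 (SE) under the western diet and -0.43 ± 0.194 under the control diet, and the difference was 1.35 ± 0.275 (limma, adjusted p = 0.179), or 1.10 without the 3 libraries. In the authors' deposited table of western diet males, Fetub was called higher with a log2 fold change of 0.87 and an adjusted p of 1.95e-06.

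Csad encodes cysteine sulfinic acid decarboxylase, the enzyme that leads cysteine to taurine (chr15:102176999-102204724, minus strand). It had 3974, 4624, 4041, 3322 and 3469 reads in WDF males, against 2581, 1893, 2156, 2687 and 2713 in WD males. Its values were 3212, 2704, 3339, 2390.0 and 3152 in CDF males, against 3601, 3635, 2593, 4705 and 4455 in CD males. Again WDF lay wholly above WD, and the control diet groups overlapped. The difference was 1.04 ± 0.221 log2 (SE; limma, adjusted p = 0.179), or 0.77 without the 3 libraries.

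Ffar4, a cell surface receptor for long-chain fatty acids (chr19:38097071-38114263, plus strand), had 145, 130.4, 147, 91.5 and 65.01 reads in WDF males, against 30.8, 23.5, 33.8, 40.9 and 87.8 in WD males. It had 44.8, 106, 82.2, 33.5 and 48.1 in CDF males, against 101, 105, 53.8, 153 and 112 in CD males. Of the WDF libraries 4 lay above every WD library, and 3 of the CDF libraries below every CD library, so that the groups overlapped under both diets. The difference was 2.27 ± 0.503 log2, or 1.95 without the 3 libraries. Hk2, the hexokinase of glycolytic tissues (chr6:82725025-82774454, minus strand), averaged 375 ± 83.7 in WDF and 242 ± 54.9 in WD males, and 227 ± 53.3 in CDF and 342 ± 50.5 in CD males (SD, n = 5 each), a difference of 1.237 ± 0.27 log2. Atf3, a stress-induced transcription factor that also belongs to the immediate early list (chr1:191170296-191218039, minus strand), averaged 67.7 ± 15.3 in WDF and 49.9 ± 8.14 in WD males, and 47.4 ± 4.20 in CDF and 80.4 ± 18.2 in CD males. The Atf3 difference was 1.14 ± 0.255 log2, and its CDF libraries all lay below its CD libraries.

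Among the described genes below 0, mean values lay lower in WDF than in WD males and higher in CDF than in CD males. Of these genes, Phf19, Pms2 and Gmps serve chromatin, DNA repair and nucleotide supply, and Phf19 and Pms2 were high mainly in WD males. Phf19, a subunit that brings polycomb repressive complex 2 to chromatin (chr2:34893757-34914026, minus strand), had 33.1, 52.98, 46.99, 41.5 and 41.7 reads in WDF males, against 163, 69.9, 109, 108 and 70.5 in WD males. It had 64.7, 43.4, 60.7, 76.3 and 70.2 in CDF males, against 40.7, 57.97, 60.004, 49.4 and 58.5 in CD males. WDF lay wholly below WD, and 4 of the CDF libraries lay above every CD library. The folic acid effect was -1.19 ± 0.22 log2 (SE) under the western diet and 0.23 ± 0.22 under the control diet, a difference of -1.42 ± 0.311 (limma, adjusted p = 0.179), or -1.51 without the 3 libraries. Over the 12 polycomb repressive complex 2 genes listed, 5 had a difference above 0 and 7 below, with a median of -0.09 log2.

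Pms2, a subunit of the MutL mismatch repair complex (chr5:143909964-143933968, plus strand), had 113, 87.6, 129, 156 and 145 reads in WDF males, against 282, 192, 194, 351 and 199 in WD males. Its values were 154, 144, 201, 176 and 183 in CDF males, against 176, 167, 131, 117 and 131 in CD males. All WDF libraries lay below all WD libraries. The difference was -1.18 ± 0.266 log2 (SE; limma, adjusted p = 0.179), or -0.92 without the 3 libraries. Gmps, which makes guanosine monophosphate in the last step of guanine nucleotide synthesis (chr3:63976106-64022579, plus strand), ranged from 694 to 941 in WDF males, wholly below the 1018 to 1215 of WD males. In CDF males Gmps ranged from 918 to 1161, and in CD males from 644 to 1004. Its difference was -0.76 ± 0.179 log2.

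Nup155, a scaffold protein of the nuclear pore (chr15:8109273-8161247, plus strand), ranged from 436 to 529.9 in WDF males, wholly below the 553 to 729 of WD males, and from 568 to 790.0 in CDF and 301 to 609.8 in CD males. Letm1, an ion exchange protein of the inner mitochondrial membrane (chr5:33739673-33782817, minus strand), ranged from 247 to 311 in WDF and 301 to 456 in WD males. In CDF males Letm1 ranged from 340.3 to 476, wholly above the 261 to 330.5 of CD males. Their differences were -0.94 ± 0.212 and -0.93 ± 0.191 log2, or -0.70 and -0.84 without the 3 libraries.

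Dusp9, a phosphatase that switches off MAP kinases (chrX:73639419-73643514, plus strand), averaged 138 ± 33.5 in WDF and 217 ± 36.95 in WD males, and 226 ± 72.9 in CDF and 115 ± 43.1 in CD males (SD, n = 5 each), with a difference of -1.64 ± 0.353 log2. Map3k20, a kinase of the ribosome stress response, averaged 232 ± 26.5 in WDF and 302 ± 22.6 in WD males, and 277 ± 23.6 in CDF and 228 ± 23.1 in CD males. Wdr70, a WD repeat protein, averaged 179 ± 18.01 in WDF and 223 ± 23.6 in WD males, and 222 ± 5.77 in CDF and 165 ± 26.4 in CD males. Zfp606, a zinc finger protein, averaged 56.7 ± 12.05 in WDF and 88.2 ± 18.9 in WD males, and 92.8 ± 6.58 in CDF and 69.8 ± 11.8 in CD males. For Wdr70 and Zfp606 every CDF library lay above every CD library.

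Cell division genes lay below 0 as a group, with the western diet effect negative and the control diet effect positive. This list and those of DNA replication, the unfolded protein response, fatty acid oxidation and apolipoproteins were taken up after their values had been seen. Of 30 mitosis genes, 26 had a difference below 0 and 12 were at an unadjusted p under 0.05 in that direction (7.2% of all genes), with none above 0 at that p. The median was -0.37 log2, beside a median effect of -0.24 under the western diet, where 27 of 30 were lower in WDF than in WD males, and 0.14 under the control diet, where 26 of 30 were higher in CDF than in CD males. Without the 3 libraries the median was -0.34 and 7 of 30 were at an unadjusted p under 0.05 (2.44% of all genes). Library weighting passed 8 of the 30 mitosis genes, against 1.57% of all genes.

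Ccnb1, the cyclin B1 that drives entry into mitosis (chr13:100778650-100786570, minus strand), had 1127, 828, 1009.5, 1035 and 1339 reads in WDF males, against 1555, 1795, 1698, 1492 and 1559.8 in WD males. It had 1096, 1362, 1239, 1463 and 1623 in CDF males, against 1166, 1229.7, 1296, 515 and 1069 in CD males. WDF lay wholly below WD, and the low CD value was that of CD replicate 4. The difference was -1.04 ± 0.276 log2 (SE; limma, adjusted p = 0.205), or -0.66 without the 3 libraries. Bub1b, a kinase of the spindle checkpoint, ranged from 483.3 to 651.1 in WDF males, wholly below the 651.4 to 867.0 of WD males, and from 599.6 to 950.3 in CDF and 475 to 672 in CD males. Kif20a, a kinesin of cytokinesis, ranged from 487 to 653 in WDF males, wholly below the 717 to 880.0 of WD males, and from 599 to 824 in CDF and 403 to 676 in CD males. Ect2, the exchange factor that places the cleavage furrow, ranged from 339.5 to 688 in WDF and 588 to 859.7 in WD males, and from 497 to 809 in CDF and 355 to 590.2 in CD males.

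Promoters of mitotic genes commonly carry CCAAT boxes, bound by NF-Y, and a cell cycle homology region, TTTGAA, bound by the DREAM and MuvB complexes, and both are shown for members with large differences. CCAAT on either strand is found in 20 of the 26 mitosis genes in the RefSeq table (76.9%) and in 40.8% of tested genes. TTTGAA on either strand is found in 9 of 26 (34.6%) and in 13.4% of tested genes. The windows are Ccnb1 at chr13:100786487-100786736, minus strand, with CCAAT in capitals, and Ect2 at chr3:27153879-27154128, minus strand, with TTTGAA in capitals.
Ccnb1: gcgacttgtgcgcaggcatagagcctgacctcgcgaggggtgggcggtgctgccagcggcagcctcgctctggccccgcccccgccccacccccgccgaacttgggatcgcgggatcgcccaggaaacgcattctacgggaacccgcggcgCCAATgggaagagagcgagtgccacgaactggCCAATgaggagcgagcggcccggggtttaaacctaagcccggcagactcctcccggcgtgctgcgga
Ect2: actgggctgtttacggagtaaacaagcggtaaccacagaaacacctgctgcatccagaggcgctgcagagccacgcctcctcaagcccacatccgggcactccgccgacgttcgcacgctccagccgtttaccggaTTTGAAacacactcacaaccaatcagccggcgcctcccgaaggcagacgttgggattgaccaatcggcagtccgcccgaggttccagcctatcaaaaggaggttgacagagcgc
The Ccnb1 window holds CCAAT at 99 and 67 bases before the RefSeq start, and the Ect2 window holds TTTGAA at 114 bases before its own. In the mm10 annotation, whose gene coordinates are given above, Ccnb1 begins inside this window.

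DNA replication genes also lay mostly below 0. Of 30, 25 had a difference below 0 and 8 were at an unadjusted p under 0.05 in that direction (7.2% of all genes), with a median of -0.29 log2. Without the 3 libraries the median was -0.33 with 6 at that p (2.44% of all genes). Mcm6, a subunit of the replicative helicase (chr1:128331590-128359664, minus strand), had 2489.6, 2177, 2169, 2347 and 2002 reads in WDF males, against 2891, 3015, 3287, 2945 and 2776 in WD males. It had 2783, 2295, 2681, 2959 and 2789 in CDF males, against 2418, 2608, 2545, 1851 and 2042 in CD males. WDF lay wholly below WD, and CDF and CD overlapped. The difference was -0.66 ± 0.157 log2 (SE; limma, adjusted p = 0.182), or -0.50 without the 3 libraries. Gins2, a subunit of the helicase's GINS complex, averaged 154 ± 36.1 in WDF and 221 ± 42.4 in WD males, and 206 ± 22.04 in CDF and 132 ± 45.9 in CD males (SD, n = 5 each). Rpa1, the largest subunit of the single-strand binding protein, ranged from 1234 to 1342 in WDF males, wholly below the 1445 to 1832 of WD males. Pola1, the catalytic subunit of polymerase alpha, ranged from 223 to 431 in WDF and 381 to 664 in WD males.

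Red cell markers were measured beside these lists, since dividing cells of the fetal liver include red cell precursors. The 21 red cell markers tested had a median difference of -0.23 log2, with 14 below 0 and 3 of them at an unadjusted p under 0.05 (7.2% of all genes). Their summed value had a median of 1457870 (1196930 to 2014310) in WDF males, 1690950 (727105 to 2434920) in WD males, 1432510 (988891 to 1581920) in CDF males and 1397270 (1009870 to 2653050) in CD males, ranges that overlap throughout. With the mean red cell marker level as a covariate, the median difference was -0.27 for mitosis and -0.18 for DNA replication genes, against 0.51 for neutrophil genes.

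**Figure D3:**
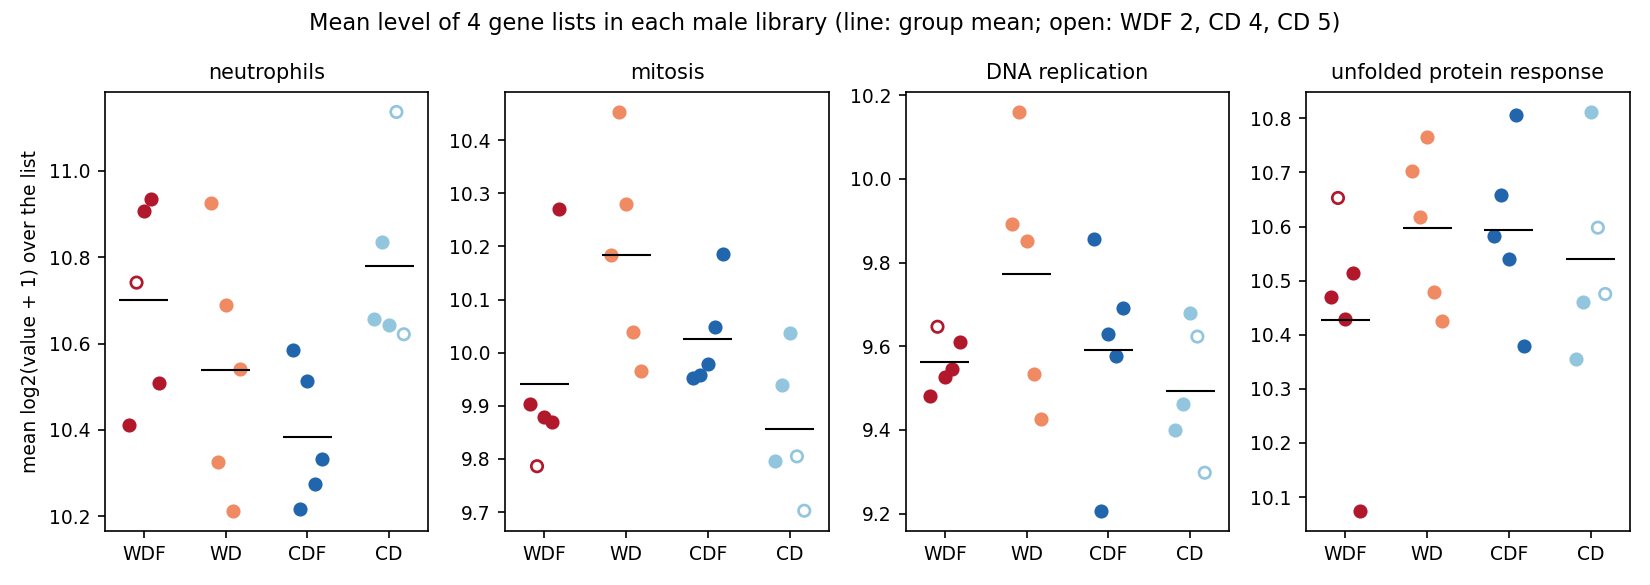
Mean log2(value + 1) over the neutrophil (15), mitosis (30), DNA replication (30) and unfolded protein response (20) lists in each male library, groups from left to right WDF, WD, CDF and CD, with the group mean as a line and WDF replicate 2, CD replicate 4 and CD replicate 5 as open points. The group means of neutrophil genes are high in WDF and CD and those of mitosis genes high in WD and CDF. For neutrophil genes the CDF and CD libraries do not overlap, by a small margin (highest CDF 10.58, lowest CD 10.62). These lists were chosen on or after sight of their values, which favours separated groups.

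The machinery of protein entry into the endoplasmic reticulum supplied 2 of the 12 smallest p-values below 0. Stt3a, the catalytic subunit of the oligosaccharyltransferase that glycosylates nascent proteins (chr9:36729344-36767679, minus strand), had 2433, 2455, 2503, 3092 and 2327 reads in WDF males, against 3238, 3351, 4747, 5317 and 4126 in WD males. It had 3220.1, 4558, 3583, 4638 and 3796 in CDF males, against 4002, 3268, 3369, 2403 and 2657 in CD males. All WDF libraries lay below all WD libraries. The difference was -1.02 ± 0.227 log2 (SE; limma, adjusted p = 0.179), or -0.82 without the 3 libraries. Ssr1, the alpha subunit of the translocon-associated protein complex (chr13:37966605-37994217, minus strand), ranged from 2039 to 2862 in WDF males, wholly below the 3275 to 4505 of WD males, and from 2978 to 4968 in CDF and 2132 to 3749.7 in CD males, a difference of -1.03 ± 0.234 log2.

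The unfolded protein response list, genes raised when proteins fail to fold in that compartment, had 15 of 20 members below 0, 5 of them at an unadjusted p under 0.05 (7.2% of all genes), and a median of -0.32 log2. Without the 3 libraries the median was -0.37 and 3 were at that p (2.44% of all genes). Hspa5, the chaperone BiP (chr2:34771970-34777547, plus strand), had 14513, 11929, 11952, 15242 and 9253 reads in WDF males, against 18369.5, 15891, 20747, 18269 and 15094 in WD males. It had 12716, 22199, 15808, 19019 and 16403 in CDF males, against 15420.1, 13748, 17726, 7709 and 12591 in CD males. Of the WDF libraries 4 lay below every WD library, and CDF and CD overlapped. The difference was -0.89 ± 0.278 log2, or -0.61 without the 3 libraries. Dnajb9, a cochaperone of BiP, averaged 649.9 ± 161 in WDF and 888 ± 123 in WD males, and 1085 ± 377 in CDF and 692 ± 179.9 in CD males (SD, n = 5 each). Hyou1, a large chaperone of the same compartment, averaged 1709 ± 283 in WDF and 2361 ± 656 in WD males, and 2202 ± 473 in CDF and 1633 ± 343 in CD males. Pdia4, a disulfide isomerase, averaged 3049.6 ± 527 in WDF and 3837 ± 712 in WD males, and 3856 ± 534 in CDF and 2938 ± 693 in CD males.

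The Hspa5 window at chr2:34771840-34772089, plus strand, is shown for its endoplasmic reticulum stress element, the site through which ATF6 with NF-Y is known to act, in capitals. The element is CCAAT and CCACG with any 9 bases between them, so it contains a CCAAT box. On either strand it is found in 6 of the 17 unfolded protein response genes in the RefSeq table (35.3%) and in 18 of the 10987 tested genes (0.2%).
Hspa5: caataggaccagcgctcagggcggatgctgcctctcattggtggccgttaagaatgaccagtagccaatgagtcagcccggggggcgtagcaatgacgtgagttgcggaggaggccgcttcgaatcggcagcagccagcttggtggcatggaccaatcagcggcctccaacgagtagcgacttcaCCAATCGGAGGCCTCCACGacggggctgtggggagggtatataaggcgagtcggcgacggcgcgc
The element's first base lies 65 bases before the RefSeq start. The gene coordinates given above are those of the mm10 annotation, in which Hspa5 begins inside this window.

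**Figure D4:**
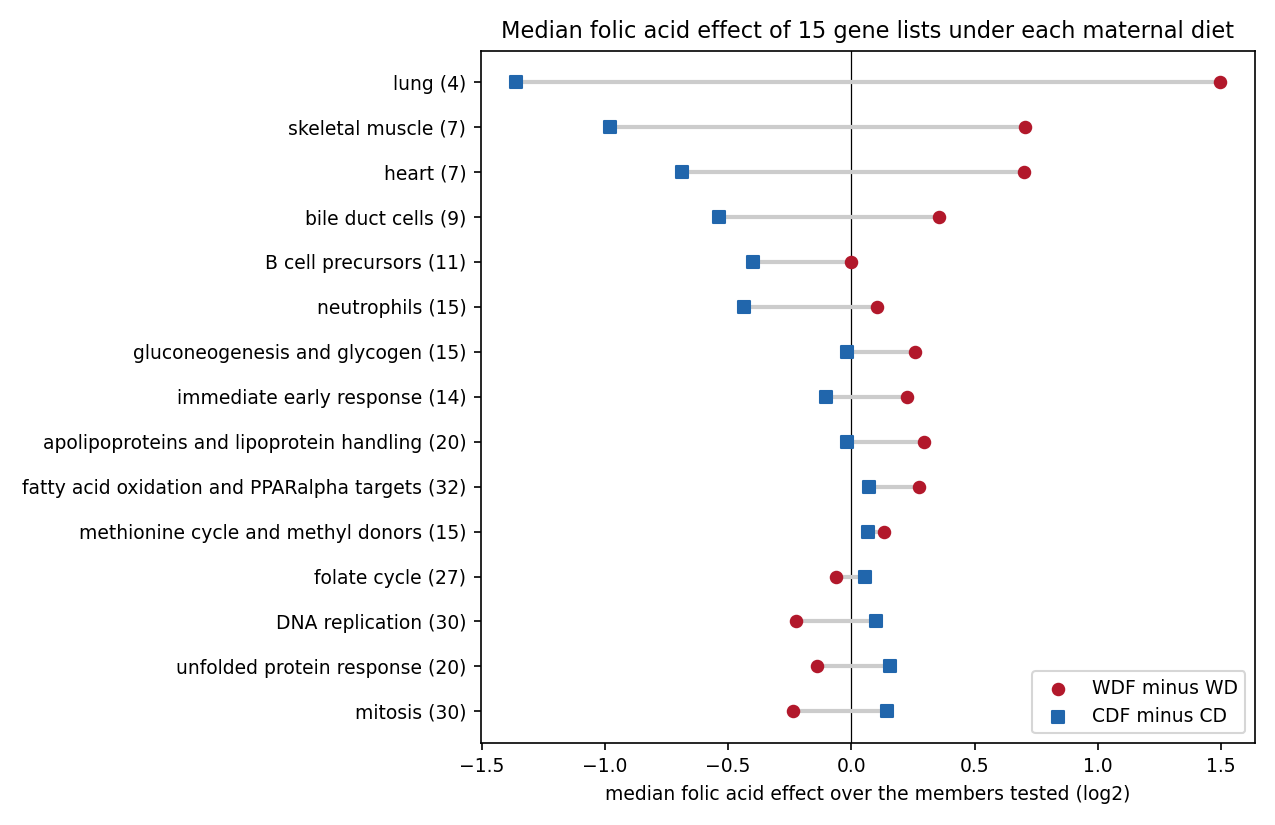
Median folic acid effect over the tested members (number in brackets) of 15 gene lists, in log2, with WDF minus WD as circles and CDF minus CD as squares. The points lie on opposite sides of 0 for most lists, farthest apart for lung (1.49 and -1.36). Mitosis, the unfolded protein response, DNA replication and the folate cycle lie in the reverse order at the bottom. All but the folate and methionine lists were chosen on or after sight of their values, which favours opposite sides. Of all tested genes 70.3% were opposite in sign, and 50.5% without the 3 libraries that stood apart.

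Genes of fat burning lay higher in WDF than in WD males and had medians of the same sign under both diets. In the list of fatty acid oxidation and PPARalpha target genes, 29 of 32 were higher in WDF than in WD males, with a median effect of 0.27 log2, and 19 of 32 were higher in CDF than in CD males, with a median of 0.07. The median difference was 0.28, with 9 at an unadjusted p under 0.05 above 0 (7.18% of all genes), and 2 without the 3 libraries (2.69% of all genes). Slc25a20, the carrier that brings acylcarnitines into mitochondria (chr9:108662088-108684641, plus strand), had 743, 789, 735, 775 and 652 reads in WDF males, against 607, 545, 507, 596 and 529 in WD males. It had 650.3, 617, 634, 584 and 538 in CDF males, against 614, 710.1, 584, 792 and 603 in CD males. WDF lay wholly above WD, and the difference was 0.53 ± 0.148 log2 (SE; limma, adjusted p = 0.24), or 0.45 without the 3 libraries. Acadvl, the first enzyme of mitochondrial oxidation of long chains, ranged from 3808 to 5341 in WDF males, wholly above the 2582 to 3498 of WD males, and from 2551 to 3711 in CDF and 2679 to 6565 in CD males, the highest being CD replicate 4. Its difference of 0.79 log2 came to 0.45 without the 3 libraries. Acaa1b, a peroxisomal thiolase with a near-identical copy, averaged 929 ± 133 in WDF and 526 ± 260.2 in WD males, and 647 ± 184 in CDF and 648 ± 169 in CD males. Fgf21, a fasting hormone of the liver, spread over 1.06 to 60.01 in WDF and 1.09 to 21.7 in WD males, and over 0 to 12.8 in CDF and 6.56 to 58.4 in CD males.

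Of 20 apolipoprotein and lipoprotein genes, 14 had a difference above 0, with 7 at an unadjusted p under 0.05 above 0 (7.18% of all genes) and 1 below (7.2%), and a median of 0.32 log2. The median was 0.24 without the 3 libraries, with 3 at that p above 0 (2.69% of all genes). Apoe, the ligand by which remnants are taken up (chr7:19696109-19699188, minus strand), had 112047, 113310.0, 117979, 111389 and 133289 reads in WDF males, against 81359.9, 68976, 76325, 81531 and 97636 in WD males. It had 96403, 94177, 101573, 73548 and 84129.9 in CDF males, against 88774, 92413, 77232, 93124 and 119689 in CD males. WDF lay wholly above WD, and the control diet groups overlapped with an effect of -0.06 ± 0.134 log2 (SE). The difference was 0.60 ± 0.19 log2, or 0.50 without the 3 libraries. Apoc3, an inhibitor of triglyceride clearance, had 1020.3, 2139, 4581, 1098 and 1074 in WDF males, against 764, 352, 359, 718 and 529.5 in WD males. In CDF males Apoc3 ranged from 436 to 2043, and in CD males from 484 to 2520.1. Apoc1 ranged from 8268 to 13097 in WDF males, wholly above the 5271 to 8258 of WD males, and Apoc4 from 5488 to 9267 in WDF and 3459 to 5813 in WD males. The highest CD values of Apoc1 and Apoc4 were again those of CD replicate 4.

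Gluconeogenesis and glycogen genes had a median difference of 0.42 log2, with 12 of 15 above 0 and 4 at an unadjusted p under 0.05 (7.18% of all genes), or 0.37 and 2 without the 3 libraries (2.69% of all genes). Gys2, the liver glycogen synthase, averaged 2188 ± 298 in WDF and 1547 ± 261 in WD males, and 1712 ± 238 in CDF and 1798 ± 259 in CD males (SD, n = 5 each). Fbp1, the fructose bisphosphatase of gluconeogenesis, averaged 15330.4 ± 2402 in WDF and 11923 ± 1734 in WD males, and 11733 ± 1731 in CDF and 14489.6 ± 3620.2 in CD males. Slc37a4, the glucose 6-phosphate transporter, averaged 3257 ± 649.7 in WDF and 2214 ± 427 in WD males, and 2696 ± 538 in CDF and 3177 ± 1402 in CD males. Foxo1, the insulin-restrained regulator of this pathway, averaged 726 ± 66.6 in WDF and 613 ± 82.8 in WD males, and 686 ± 131 in CDF and 763 ± 83.3 in CD males.

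Immediate early genes, switched on within minutes of a stimulus, had 12 of 14 tested members above 0, 4 at an unadjusted p under 0.05 (7.18% of all genes), and a median of 0.40 log2, or 0.28 and 2 without the 3 libraries (2.69% of all genes). Fos had 28.9, 39.6, 40.3, 84.7 and 40.7 reads in WDF males, against 21.6, 16.5, 17.996, 18.2 and 38.7 in WD males. It had 24.7, 29.1, 31.9, 13.9 and 25.9 in CDF males, against 28.6, 26.5, 82.4, 26.7 and 19.9 in CD males, with CD replicate 3 far above its group. The Fos difference was 1.38 ± 0.497 log2, or 1.72 without the 3 libraries. Klf6 ranged from 509 to 785 in WDF and 519.6 to 595 in WD males, and Jund from 1418 to 2289 in WDF and 896 to 1774 in WD males.

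Genes that handle folate itself lay on both sides of 0. All 27 folate cycle genes were tested, and 10 had a difference above 0 and 17 below. Of these, 3 above and 2 below were at an unadjusted p under 0.05, where 7.18% and 7.2% of all genes were, with a median of -0.19 log2, and none was at that p without the 3 libraries. Ftcd, which breaks down histidine with tetrahydrofolate as acceptor, had 2043, 2088, 1866, 1792 and 1572 reads in WDF males, against 1484, 1365, 1515, 1826 and 1531 in WD males. It had 1772, 1720.3, 1969, 1519 and 1531 in CDF males, against 1731, 1847, 1699.7, 2151 and 1926 in CD males. Its groups overlapped under both diets, and the difference was 0.42 ± 0.158 log2 (SE; limma, adjusted p = 0.285). Aldh1l1, which oxidises formyl tetrahydrofolate, averaged 2195 ± 236 in WDF and 1737 ± 408 in WD males, and 2009 ± 212 in CDF and 2201 ± 341 in CD males (SD, n = 5 each). Mthfd2l, a mitochondrial folate dehydrogenase, averaged 40.1 ± 8.11 in WDF and 55.8 ± 7.85 in WD males, and 42.6 ± 9.21 in CDF and 37.05 ± 9.50 in CD males, with a difference of -0.68 ± 0.293 log2.

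In the methionine cycle and methyl donor list, 15 of 16 genes were tested, 10 had a difference above 0, and 4 of these were at an unadjusted p under 0.05 (7.18% of all genes), with a median over the list of 0.17 log2. That median was 0.083 without WD replicate 2, 0.11 without WDF replicate 1 and 0.26 without WD replicate 4. None of the 15 was at that p without the 3 libraries. Mat2a, a synthase of S-adenosylmethionine, had 1900.1, 2274, 2327, 1670.2 and 1529 reads in WDF males, against 1778, 1879, 1334, 731 and 1079 in WD males. It had 1678, 1245, 1354, 917 and 997 in CDF males, against 1195, 1430.2, 1518, 3233 and 1682 in CD males. The highest CD value was that of CD replicate 4, and the difference of 1.06 ± 0.368 log2 was 0.70 without the 3 libraries. Pemt, which spends methyl groups on phosphatidylcholine, averaged 6272 ± 1483 in WDF and 4406 ± 637 in WD males, and 4801 ± 1384 in CDF and 6694 ± 3033 in CD males, and its difference of 0.93 was 0.50 without the 3 libraries. Gnmt, which disposes of excess methyl groups on glycine, averaged 3109.9 ± 449 in WDF and 2466 ± 302 in WD males, and 2711 ± 552 in CDF and 2973 ± 358 in CD males. Sardh, which returns sarcosine's one-carbon unit to folate, averaged 2740.4 ± 463 in WDF and 2045 ± 566 in WD males, and 2115 ± 368 in CDF and 2346 ± 356 in CD males.

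Lists of duct cells and of other organs had the widest medians, on few genes and low values. Bile duct markers had 8 of 9 tested above 0, 4 at an unadjusted p under 0.05 (7.18% of all genes), and a median of 0.99 log2, or 0.74 with 2 at that p without the 3 libraries (2.69% of all genes). Without CD replicate 3 alone the median was 0.55: its summed duct markers were 2751 normalized reads, against 813 to 1422 in the other CD libraries. Sox9, the regulator of biliary fate, averaged 94.7 ± 25.6 in WDF and 55.5 ± 2.96 in WD males, and 58.8 ± 15.9 in CDF and 71.7 ± 20.8 in CD males (SD, n = 5 each). Krt7, a duct keratin, ranged from 31.5 to 372 in WDF and 49.1 to 146 in WD males. In CDF males Krt7 ranged from 57.2 to 115, wholly below the 145 to 844 of CD males. B cell precursor genes had 9 of 11 above 0 and a median of 0.58 log2, or 0.24 without the 3 libraries. Of the 11, 1 gene, Pax5, was above 0 at an unadjusted p under 0.05, near the share of all genes (7.18%), and none without the 3 libraries. Their median was 0.20 without CDF replicate 2, 0.27 without WD replicate 5 and 0.36 without CD replicate 4.

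Markers of lung, skeletal muscle and heart, organs outside the liver, also lay above 0, with medians of 2.85 over 4 lung, 2.02 over 7 muscle and 1.62 log2 over 7 heart genes. The lists named 10 lung, 13 muscle and 10 heart genes, and the rest were absent or failed the filter on low values. A gene near that limit passes through the groups where it is high, as Sftpc did mostly through WDF and CD libraries. For such genes the filter itself favours a difference above 0. The muscle median was 1.28 without CD replicate 4, and the heart median 0.96 without WDF replicate 2. The summed lung markers reached 7664 in WDF males, with a median of 213, and 227 in WD males, with a median of 199.5. They reached 186 in CDF males, with a median of 165, and 5285 in CD males, with a median of 219.8. WDF replicate 4, at 373, and CD replicate 2, at 379, lay above every WD and CDF library. The summed muscle markers lay between 130.4 and 419.9 in WDF, 91.9 and 249.9 in WD, 84.1 and 160.6 in CDF and 128.3 and 629.4 in CD males. Without the 3 libraries the medians were 0.91 for lung, 1.17 for muscle and 0.90 for heart. At an unadjusted p under 0.05 there were then 1 lung gene, Ager, and 1 heart gene, Myl4, both above 0 (2.69% of all genes). Sftpc, Tnnc2, Tnnt3 and Slc34a2, among others, then no longer passed the filter on low values. The lung median without the 3 libraries was that of Ager (1.61 log2) and Napsa (0.21). The heart list held 5 tested genes already without WDF replicate 2 and CD replicate 5. Those list medians thus still lay above 0 after the 3 libraries were left out, but over fewer genes. The part of these markers in the gene results was not tested.

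The authors' deposited tables of folic acid effects allow a count across diets, since each compares males within a single maternal diet. Whether libraries of the other diet entered the authors' model is not known. Limma passed no gene at an adjusted p under 0.05 for either folic acid effect, and counts were larger at an unadjusted p under 0.05. For WDF against WD they were 1540 (10.4%), 830 higher (5.61%) and 710 lower (4.8%). For CDF against CD they were 627 (4.24%), 276 higher (1.87%) and 351 lower (2.37%). The CDF against CD count was 350 without CD replicate 4, 1022 without CD replicate 1, 1108 without CDF replicate 1 and 265 without the 3 libraries. In the authors' deposited table of western diet males, 134 genes were called higher and 69 lower in WDF than in WD males at an adjusted p under 0.05. In the control diet libraries, 110 of the 134 higher genes (82.1%) were lower in CDF than in CD males, with a median effect of -0.25 log2, against 70.2% and -0.11 over all genes higher in WDF. Of the 69 lower genes, 64 (92.8%) were higher in CDF than in CD males, with a median of 0.27, against 70.3% and 0.11. Without CD replicates 4 and 5, chosen after their values were seen, the shares were 52.6% of 133 against 50.7% of all genes for the higher genes, and 69.6% of 69 against 53.1% for the lower genes. The excess of opposite signs among the higher genes thus rested on those CD libraries, and that among the lower genes remained in part.

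In the authors' deposited table of control diet males 7 genes were called. Stfa2, with a log2 fold change of -0.50, Ngp (-0.42), Krt7 (-1.78) and Gprc5a (-3.06) were lower in CDF than in CD males, and Apoa5 (1.89), Xlr3b (2.15) and the predicted gene Gm45140 (2.20) were higher. In the western diet libraries 5 of the 7 had the opposite sign, where 69.4% of all genes higher in CDF and 71.1% of those lower in CDF did. The western diet effects were 0.41 for Stfa2, 0.08 for Ngp, -0.01 for Krt7, 1.69 for Gprc5a, -1.0003 for Xlr3b and -2.19 log2 for Gm45140. Apoa5, an activator of triglyceride clearance, kept its sign, at 1.242 log2 under the western diet and 1.75 under the control diet. Krt7 is counted as of the same sign, but its western diet effect, -0.01 ± 0.553 log2 (SE), has no clear sign. Ngp, at 0.08, is counted as opposite on a small effect.

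Female fetuses of the same 4 maternal diets gave a separate measure. The difference of folic acid effects in females was taken over 18 libraries, without the female CD replicate 4 and CDF replicate 5, which were low in albumin. Over 15377 genes the male and female differences correlated at r = -0.354, with 68.9% of genes opposite in sign, and 20 of the 24 genes of smallest male p had the opposite sign in females. At an unadjusted p under 0.05 the male minus female contrast held 3920 genes (25.5%), and 1 gene, the predicted Gm6142, passed the adjusted threshold (0.0065% of all), a count met again in 7 of 43 alternatives. The 3920 came to 2291 without the female CDF replicate 4. Of the 24 genes, 23 were at an unadjusted p under 0.05 in that contrast, which their choice in males favours. Without the 3 male libraries the correlation was -0.098, with 58.8% of genes opposite in sign, the contrast held 1451 genes (9.53%) at an unadjusted p under 0.05, and none passed the adjusted threshold, Gm6142 being at an adjusted p of 0.469. Of the 24 genes, 19 were then at an unadjusted p under 0.05. The 20 opposite in females had to recur, since the female values do not change and all 24 kept their male direction. Retnlg differed by 2.19 ± 0.552 log2 (SE) between males, at 1.45, and females, at -0.74 (limma, adjusted p = 0.167), and by 2.08 without the 3 libraries. Nup155 differed by -1.59 ± 0.363, with -0.94 in males and 0.65 in females (limma, adjusted p = 0.167), and by -1.35 without the 3 libraries. The neutrophil list had a median of 0.50 in males and -0.51 in females, where 1 of 15 members lay above 0. Mitosis genes had a median of -0.37 in males and -0.02 in females, whereas DNA replication genes had -0.29 in males and -0.28 in females.

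**Figure D5:**
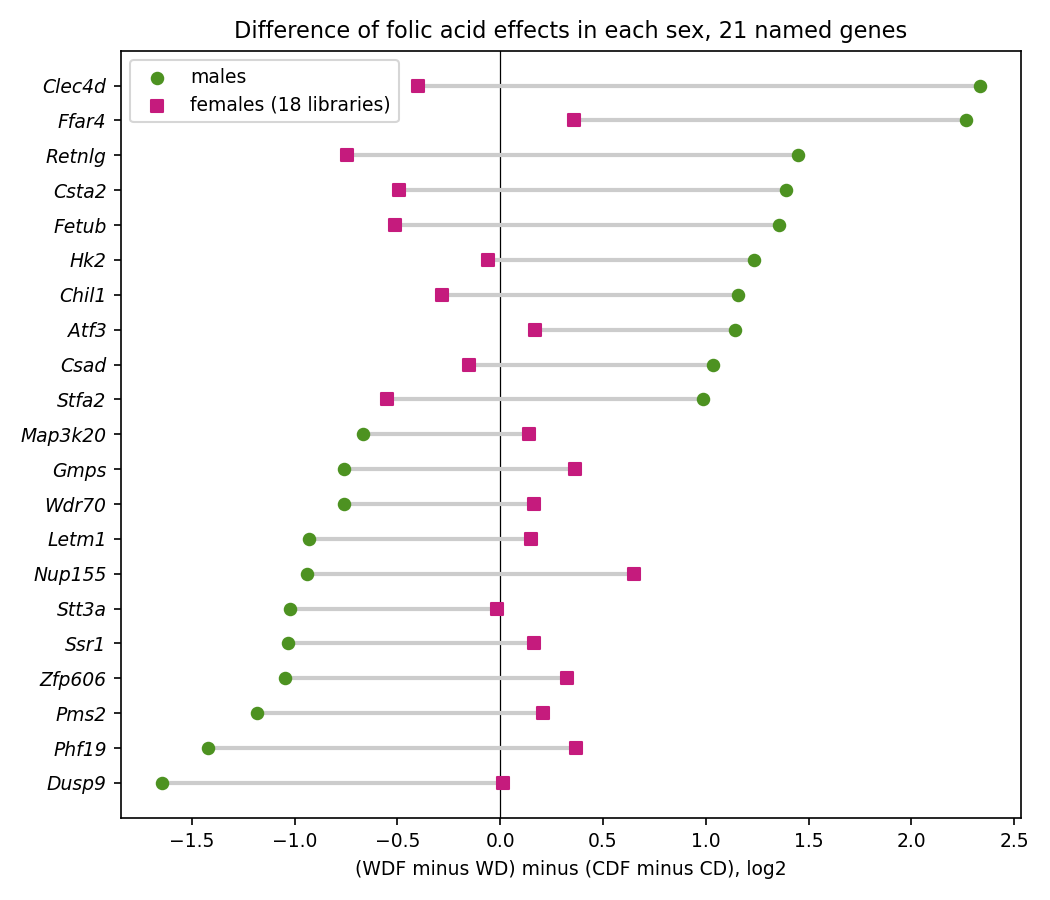
Difference of folic acid effects, (WDF minus WD) minus (CDF minus CD), in log2, for the 21 named genes in males (circles) and in females (squares, 18 libraries). For most genes the female value lies near 0 or on the other side of it, as for Retnlg (1.45 in males and -0.74 in females) and Nup155 (-0.94 in males and 0.65 in females).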

How the data were processed

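Bulk polyadenylated RNA of fetal mouse liver was sequenced from a directional, paired-end library for each mouse, per the labels' protocols. The submitters' processing notes name Trimmomatic 0.39, STAR 2.7.3a, Salmon 1.3.0 and DESeq2 1.24 with the mm10 build without their role or order. The deposited signal values are read counts per gene divided by a factor per library by the authors, as judged from the values, and are not scaled by gene length. Taking the smallest step of low values as 1 read, 27.8 to 60.3% of a library's low values came out whole (tolerance 0.1 of a step), so reads and depth could not be recovered. The log2 fold changes and p-values of the authors' deposited tables were used only where named. All columns were matched to samples by title. The female column labelled only CDF_1 was taken as CDF female replicate 1.

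The filter kept genes that reached 10 normalized reads in 5 or more of the 20 libraries, and these, 14783 of 20593, were tested on log2(value + 1), so fold changes of low genes are understated. Limma 3.58.1 (R 4.3.3; mean-variance trend, robust) was fitted with 1 mean per group, and p-values were adjusted by Benjamini-Hochberg over all genes tested. The script was tested on simulated data. Gene coordinates came from the mm10 annotation and motif windows from RefSeq, and the starts of the same gene can differ between them. Genes named are the 12 of smallest unadjusted p in each direction, plus up to 4 members of smallest p in each list described, namely the folate and methionine lists, the 8 lists whose median lay farthest from that of all genes, and others stated as added. Some of these genes are counted in their lists but not reported here. The members and lists were chosen with earlier results of these data known. Alternatives were other scalings, pseudocounts, filters, weights, covariates and left-out libraries.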

Additional observations from a re-analysis of the deposited data

Results flagged for a closer look

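Among 308 groups of 5 libraries (77 named genes in the 4 male groups), 18 held a library far from the other 4, where chance flags about 1 in 20 groups. Of these, 8 were CD replicate 4. Its values were 12036 normalized reads for Pemt (4662 to 6120.2 in the other CD libraries), 515 for Ccnb1 (1069 to 1296), 6565 for Acadvl (2679 to 3343), 11199 for Apoc4 (4142 to 5487) and 17579 for Apoc1 (6399 to 7547). They were 5663 for Slc37a4 (2278 to 2733), 36511 for S100a9 (15738 to 18199.7) and 12187 for Ltf (5826 to 6692).

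CD replicate 3 stood apart for 3 genes, with 1611 for Aldh1l1 (2243 to 2478 in the others), 359.7 for Acaa1b (674 to 807) and 82.4 for Fos (19.9 to 28.6). WD replicate 1 was low for Bub1b, at 651 (819 to 867), and for Ect2, at 588 (779 to 859.7), while WD replicate 4 was high for Atf3, at 64.1 (44.8 to 49.0). WDF replicate 4 was high for Stt3a, at 3092 (2327 to 2503). CDF replicate 2 was low for Cd79b, at 99.7 (217 to 279.7), and for Cd79a, at 117 (260.1 to 348), both parts of the B cell receptor. CDF replicate 1 was low for Slc34a2, at 1.52 (4.39 to 6.25).

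Between the sexes, the predicted gene Gm6142 had a difference of folic acid effects that was 4.57 ± 0.824 log2 (SE) higher in males, at 2.41, than in females, at -2.16 (limma, adjusted p = 0.0491). Without the 3 male libraries that stood apart the adjusted p was 0.469. Its group means lay between 3.70 and 12.5 normalized reads.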

How the results depend on the processing

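The count of 0 genes past the adjusted threshold for the difference of folic acid effects held in 32 of 35 alternatives. It was 469 with library weights and 3 with the red cell covariate, and 0 to 1 when single libraries were left out, the 1 being reached without WD replicate 5. Genes at an unadjusted p under 0.05 numbered 749 to 4055 over the alternatives, and 1504 to 2863 when single libraries were left out. For WDF against WD the count of 0 came to 819 with library weights and 2 with the red cell covariate, and stayed at 0 when single libraries were left out. For CDF against CD it was 0 in all 35. The male minus female count of 1 was met in 7 of 43 alternatives: it was 0 with all 40 libraries, with a pseudocount of 5, with the replicate block and without the 3 male libraries, 3 with library weights, and 0 to 1 when single libraries were left out. Genes at an unadjusted p under 0.05 in that contrast numbered 1451 to 5136 over the alternatives. Of 2678 values for 77 named genes under the alternatives, 2634 kept their direction and their side of the threshold, 43 came past the threshold, and 1 changed sign: Myl7 at -0.073 log2 without the 3 libraries. The cause was not tested. Replicate numbers did not pair the libraries: deviations of same-numbered libraries correlated at -0.021 on average (-0.404 to 0.361 over 30 pairs, 10 of them over 0.1), and 5 of 20 libraries correlated best with their own number. With the number as a replicate block, 0 genes passed the adjusted threshold for the difference of effects, and 1839 were at an unadjusted p under 0.05. Low values, such as those of the lung and muscle markers, also limit precision.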

Other observations

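Genes of the translation and respiration machinery had list medians of opposite sign in the sexes, without any male member at an unadjusted p under 0.05 over all 20 libraries. Of 30 cytosolic ribosomal protein genes, 25 had a difference of folic acid effects above 0 in males, with a median of 0.33 log2 (0.16 without the 3 libraries), and 0 of 30 in females, with a median of -0.75. The male minus female contrast held 20 of the 30 at an unadjusted p under 0.05, against 25.5% of all genes, and 7 of 30 without the 3 libraries, against 9.53%. Of 29 oxidative phosphorylation genes, 23 were above 0 in males, with a median of 0.25, and 2 in females, with a median of -0.54, and 16 of 29 were at that p in the contrast, or 5 of 29 without the 3 libraries.

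Bile acid synthesis and transport genes had a median of 0.36 log2 in males, with 4 of 13 at an unadjusted p under 0.05 above 0, both with all 20 libraries (7.18% of all genes) and without the 3 (2.69% of all genes). Megakaryocyte genes had a median of 0.39 with 4 of 15 above 0 at that p (7.18% of all genes), and 0.23 with none without the 3 libraries. Interferon response genes had a median of 0.39 with 2 of 17 above 0 at that p (7.18% of all genes), and 0.14 with none without the 3 libraries. Cholesterol synthesis genes lay on both sides of 0, with 6 of 24 above and a median of -0.18.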
